A study of Homo sapiens with 45 samples.

Results

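Interferon-stimulated genes are the genes that cells switch on when interferon, a secreted antiviral signal, binds its receptors. A list of 47 such genes was followed here across a microarray study of miRNA transfection, which asked how cancer cell types differ in the miRNA-induced passage from a mesenchymal to an epithelial state. The array annotation gave 46 of the 47 listed genes at least 1 probe set with a single gene symbol, out of 19775 genes on the array, and STAT2 was not analysed here. Each gene was represented by its probe set with the highest mean over all 45 arrays.

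The arrays measured total RNA of PC3, which derives from a prostate carcinoma, and of HEY and SKOV3, which derive from ovarian carcinomas. In each line cells received 33 nM of a synthetic miRNA precursor, namely that of miR-203a, that of miR-205, that of miR-429 or the negative control miR-NC, delivered with Lipofectamine 2000, and were collected at 48 h. A further group of each line was labelled untransfected. All cultures were grown in RPMI 1640 with foetal bovine serum, and RNA was amplified from its 3′ end before labelling with biotin. Each of the 15 groups held 3 arrays. Whether these were separate cultures is not labelled, so p-values here measure only the spread between arrays, and 3 arrays a group limit the precision of every value.

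The response works as a relay. Sensors of double-stranded RNA, such as TLR3, RIG-I and MDA5, recognise viral or synthetic RNA and turn on interferon-beta and the lambda interferons, and the secreted interferons then act through JAK kinases and the transcription factor complex ISGF3, of which IRF9 is a subunit. ISGF3 binds a DNA element called ISRE in the promoters of its target genes, and the proteins made from them degrade RNA, block translation, trap virions or recruit lymphocytes. Small synthetic RNAs are known to be able to engage the same sensors.

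The transfected precursors differ in the seed, the stretch near the 5′ end by which a miRNA pairs with its targets. RefSeq (GRCh38.p14) gives the mature strands below, shown because the gene response differed between these 3 RNAs, with the seed (bases 2 to 8) in capitals. The labels do not name the arm, so the arm shown is the one usually meant by the name. No seed is shared between them.
hsa-miR-203a-3p: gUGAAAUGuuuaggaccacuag
hsa-miR-205-5p: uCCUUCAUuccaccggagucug
hsa-miR-429: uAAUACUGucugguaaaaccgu
These lie at chr14:104117469-104117490, chr1:209432166-209432187 and chr1:1169055-1169076, each on the plus strand.

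The genes share promoter letters that their selection did not use. Windows of 300 bases around each listed start of a gene were searched (250 before and 50 after, RefSeq GRCh38.p14), and a match in any window counted. The ISRE core is GAAA and another GAAA with any 2 bases (NN) between them, on either strand. It was found for 26 of the 38 listed genes with a promoter entry, or 68.4%, against 1195 of 27305 genes of the table, or 4.38%. The 27305 genes had 35116 windows, and the number of windows per gene was not matched. The core of the GAS element, TTCNNNGAA, which the interferon-gamma pathway uses, was found for 14 of the 38, or 36.8%, against 2560 of the 27305 genes, or 9.38%. Both cores were found for 8 of the 38 genes and neither for 6, and a match of letters is a description, not a shown binding site. The stretches below are 60 bases each, read 5′ to 3′ along the gene's own strand with the ISRE match in capitals, and they belong to genes whose array values are given further on.
ISG15 (chr1:1013365-1013424, plus strand): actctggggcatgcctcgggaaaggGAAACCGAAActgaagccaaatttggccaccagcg
IFIT1 (chr10:89392495-89392554, plus strand): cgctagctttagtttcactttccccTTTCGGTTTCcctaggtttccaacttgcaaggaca
MX1 (chr21:41431829-41431888, plus strand): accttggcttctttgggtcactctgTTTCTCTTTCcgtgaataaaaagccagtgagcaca
RSAD2 (chr2:6877607-6877666, plus strand): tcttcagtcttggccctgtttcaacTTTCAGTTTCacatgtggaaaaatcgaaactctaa
CXCL10 (chr4:76023684-76023743, minus strand): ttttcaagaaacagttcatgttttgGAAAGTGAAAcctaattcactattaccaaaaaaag
IFI44L (chr1:78620350-78620409, plus strand): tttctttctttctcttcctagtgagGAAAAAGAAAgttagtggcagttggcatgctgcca
In ISG15 the match lies 107 to 98 bases before the start, in CXCL10 221 to 212 bases before it and in IFI44L 73 to 64 bases before it. In IFIT1, MX1 and RSAD2 the core reads on the opposite strand, 103 to 94, 196 to 187 and 145 to 136 bases before the start. The median difference of miR-205 minus miR-NC in PC3, described below, was 3.37 log2 units for the 26 genes with an ISRE match and 3.18 for the 12 without one, while that of miR-205 minus miR-203a was 2.72 and 3.03. For the GAS core these medians were 3.14 with a match and 3.37 without one against miR-NC, and 2.57 and 2.92 against miR-203a, so neither core went with larger differences in both comparisons.

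Several features of the whole series bear on the values. All levels are log2 intensities, and a level below 4.89, the median of all values, is treated as near background, so that a difference from it is a bound on the size and no fold is given. Levels of different genes are not compared, since probe sets differ in brightness. The arrays labelled untransfected went against their line labels: ERBB2, which is amplified in SKOV3, averaged 12.31 in those labelled HEY and 7.60 in those labelled SKOV3, against 11.33 in SKOV3 miR-NC, and the epithelial cadherin CDH1 averaged 2.93 in those labelled PC3, against 9.83 in PC3 miR-NC. They are therefore described only. Among transfected arrays ERBB2 was highest in SKOV3 and CDH1 in PC3. The prostate gene HOXB13 averaged 6.56 in PC3 miR-NC and 6.70 in SKOV3 miR-NC and so did not separate these groups. It averaged 8.19 in PC3 miR-203a, 7.19 in PC3 miR-205 and 5.36 in PC3 miR-429. In the arrays labelled SKOV3 untransfected HOXB13 averaged 11.73, and in those labelled PC3 4.36. The spiked-in dap control averaged 9.59 to 10.01 in the transfected SKOV3 groups and 2.01 to 3.03 elsewhere. For SKOV3 the cell line and the handling of the samples therefore cannot be told apart. The dap level was low in both transfected HEY (2.34 to 3.03) and transfected PC3 (2.01 to 2.49), which does not show that they were handled alike. The caveat is therefore kept for every pair of transfected lines. Array medians were 4.49 to 4.51 in PC3 miR-429 and at least 4.84 on all other arrays. No 2 arrays held identical values.

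Across the transfected groups PC3 cells given miR-205 stood apart. The median level of the 46 genes was 11.15 there, against 8.50 in PC3 miR-203a, 8.06 in PC3 miR-429 and 7.54 in PC3 miR-NC. By array the medians were 11.20, 11.09 and 11.14 in PC3 miR-205, against 7.45, 7.64 and 7.47 in PC3 miR-NC. HEY had medians of 6.21 with miR-203a, 6.25 with miR-205, 5.67 with miR-429 and 6.50 with miR-NC. SKOV3 varied least, with 7.02, 6.97 and 7.02 for these miRNAs and 7.09 for miR-NC. The arrays labelled untransfected gave 6.91 for HEY, 6.22 for SKOV3 and 6.22 for PC3.

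**Figure D1:**
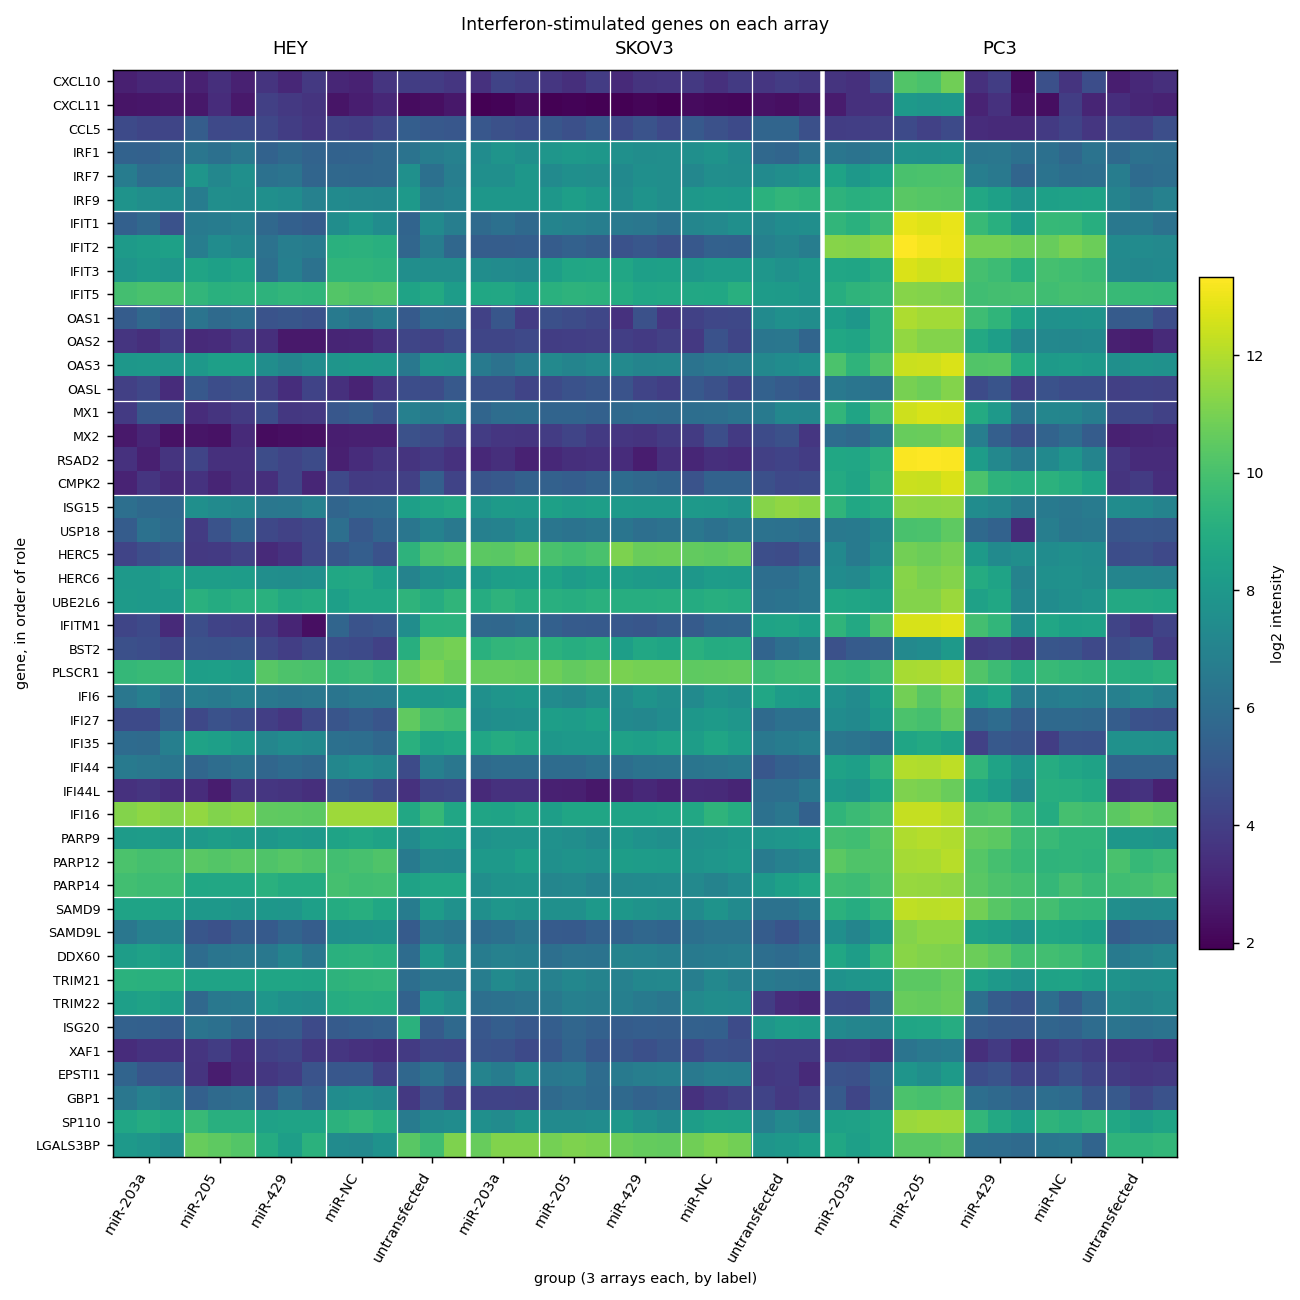
Heat map of the log2 level of the 46 genes (down, ordered by role) on the 45 arrays (across, by group), with the colour scale in log2 intensity. The 3 PC3 miR-205 arrays form the brightest columns, with 38 genes at a mean of 10 or more against 1 gene in PC3 miR-NC.

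In PC3 miR-205, 38 of the 46 genes had a mean of 10 or more, against 3 in PC3 miR-203a, 6 in PC3 miR-429 and 1 in PC3 miR-NC. The share of all genes at that level was not counted. Of the 12 transfected groups, PC3 miR-205 held the highest mean for 41 of the 46 genes, while it held the highest mean for 5.28% of all genes. The 5 exceptions were all highest in SKOV3: CCL5, IRF1 and LGALS3BP with miR-205, and BST2 and IFI35 with miR-203a. HEY miR-429 most often held the lowest mean, for 11 genes, followed by SKOV3 miR-205 with 8. How often these groups held the lowest mean over all genes was not counted, so this is not read as a trait of the list. The median of all genes was 5.82 in HEY miR-429 and 6.13 in HEY miR-NC. A measure of transcript 5′ coverage moved between groups as well: the 5′ minus 3′ difference of the GAPDH control probe sets averaged -3.44 ± 0.49 in PC3 miR-205, -2.34 ± 0.19 in PC3 miR-203a, -5.46 ± 0.76 in PC3 miR-429 and -5.28 ± 1.01 in PC3 miR-NC (SD, n = 3 each). From miR-NC to miR-205 in PC3 this gap narrowed while the genes rose. From miR-203a to miR-205 the gap widened while the genes rose. The part of the gap in any result was not tested.

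**Figure D2:**
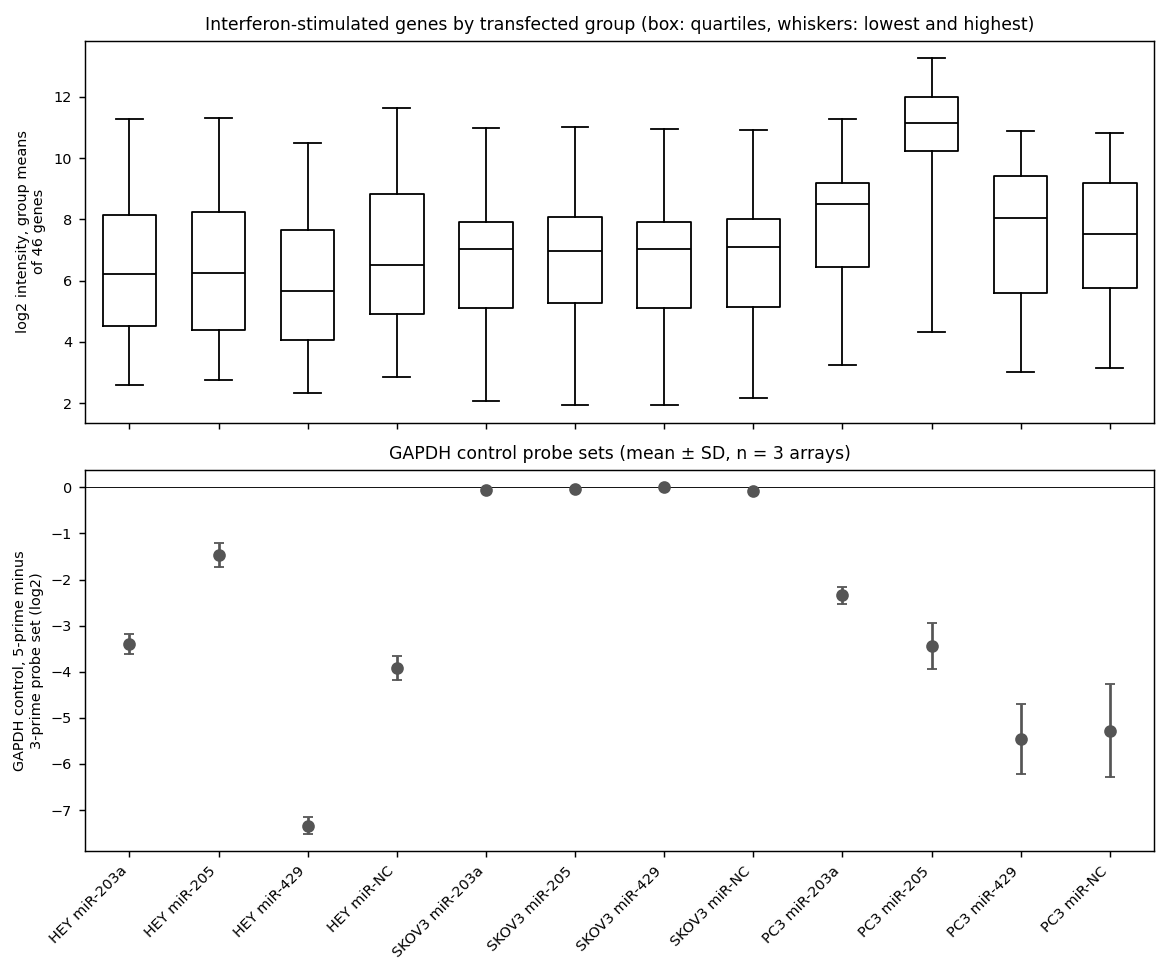
Top, boxes of the 46 genes' group means (log2 intensity) for the 12 transfected groups, with quartiles and with whiskers to the lowest and highest gene. Bottom, the GAPDH 5′ minus 3′ control difference (log2) as mean ± SD of 3 arrays per group. The box of PC3 miR-205 has a median of 11.15 and that of PC3 miR-NC 7.54, while the control difference is -3.44 and -5.28 there and near 0 in transfected SKOV3.

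The first comparison was miR-205 against miR-NC in PC3. Of the 46 genes 45 were higher and none lower at an adjusted p threshold of 0.05 (limma, Benjamini-Hochberg over all 19775 genes), where 22.6% of all genes were higher. All 45 differed by at least 2-fold, as 9.16% of all genes did, and on 45 of 46 genes all miR-205 arrays lay above all miR-NC arrays, as on 26.0% of all genes. The median difference was 3.47 log2 units, against 0.00 over all genes. In 8 genes the miR-NC mean lay below 4.89. A list chosen with these results known is not independent evidence of its own direction, and RNA of whole cultures cannot tell fewer responding cells from less RNA in each.

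The chemokines CXCL10 and CXCL11, which attract T cells through the receptor CXCR3, were near background in the control and clearly measured with miR-205. CXCL10 read 10.21, 10.02 and 10.85 on the PC3 miR-205 arrays, against 4.70, 3.59 and 4.58 with miR-NC. CXCL11 read 8.09, 7.90 and 7.99 with miR-205, against 2.32, 3.98 and 3.08 with miR-NC. Every miR-205 array lay several log2 units above every control array in both genes. The differences were 6.07 ± 0.30 for CXCL10 (adjusted p = 4.44e-18) and 4.87 ± 0.25 for CXCL11 (adjusted p = 2.25e-17). Here and below, ± after a difference between groups is its standard error in the fit of all arrays. CCL5, a chemokine for monocytes and T cells, was the exception of the 46, with 4.46, 4.10 and 4.44 in miR-205, against 3.84, 4.18 and 3.69 in miR-NC. Its arrays overlapped, all lay near background, and the difference of 0.43 ± 0.22 did not pass (adjusted p = 0.115). CCL5 has 3 probe sets, and their mean differed by 0.98 (adjusted p = 3.54e-06), while a fit of PC3 alone gave an adjusted p of 0.0423 for the brightest one.

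The 3 measured transcription factors of the list rose as well. IRF7, which amplifies the interferon response, read 10.04, 10.10 and 10.11 with miR-205, against 6.26, 6.04 and 6.06 with miR-NC. Both groups were tight and far apart, with a difference of 3.96 ± 0.27 or 15.6-fold (adjusted p = 1.62e-14). IRF1, which drives both interferon and inflammatory promoters, read 7.68, 7.61 and 7.72 with miR-205, against 6.09, 5.72 and 6.25 with miR-NC. Its groups did not overlap, but its rise of 1.65 ± 0.15 or 3.14-fold (adjusted p = 3.63e-11) was the smallest of the 3 factors. IRF9, the DNA-binding subunit of ISGF3, rose by 1.89 ± 0.23 or 3.71-fold (adjusted p = 1.39e-08).

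The IFIT proteins bind foreign RNA and hinder its translation, and all 4 rose. IFIT1 read 12.90, 12.77 and 12.95 with miR-205, against 9.54, 9.51 and 9.05 with miR-NC, and differed by 3.51 ± 0.29 or 11.4-fold (adjusted p = 1.64e-12). IFIT5 read 11.24, 11.21 and 11.10 with miR-205, against 9.83, 9.95 and 9.92 with miR-NC, and so was bright in both groups. Its difference of 1.28 ± 0.13 or 2.43-fold (adjusted p = 1.99e-10) was the smallest of the 4, and IFIT2 and IFIT3 differed by 2.33 and 2.77.

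The oligoadenylate synthetases make the messenger that activates RNase L, and 3 of them changed by 4.04 to 4.37. OASL, a family member without synthetase activity that enhances RIG-I signalling, had a control below 4.89, so its difference is a bound. It read 10.96, 10.78 and 11.22 with miR-205, against 4.76, 4.61 and 4.61 with miR-NC, near background in the control and bright with miR-205 (difference 6.32 ± 0.25, adjusted p = 5.62e-21). OAS2 had the smallest difference of the family and was clearly measured in both groups, with 11.45, 11.19 and 11.19 in miR-205, against 7.21, 7.18 and 7.31 in miR-NC. It differed by 4.04 ± 0.26 or 16.4-fold (adjusted p = 4.94e-15), and OAS1 and OAS3 by 17-fold and 20.7-fold.

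RSAD2 encodes viperin, which makes a chain-terminating nucleotide, and CMPK2 is its neighbouring gene, a nucleotide kinase of mitochondria. RSAD2 read 13.25, 13.32 and 13.24 with miR-205, against 7.33, 7.87 and 7.03 with miR-NC, a rise of 5.86 ± 0.26 or 58.1-fold (adjusted p = 3.93e-19). CMPK2 read 12.41, 12.34 and 12.68 with miR-205, against 9.22, 8.96 and 8.52 with miR-NC, and differed by 12-fold (3.58 ± 0.29, adjusted p = 1.04e-12). The dynamin-like GTPases MX1 and MX2, which block viral nucleocapsids, rose by 47.8-fold and 36.8-fold. MX1 read 12.46, 12.64 and 12.60 with miR-205, against 7.15, 7.09 and 6.73 with miR-NC.

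**Figure D3:**
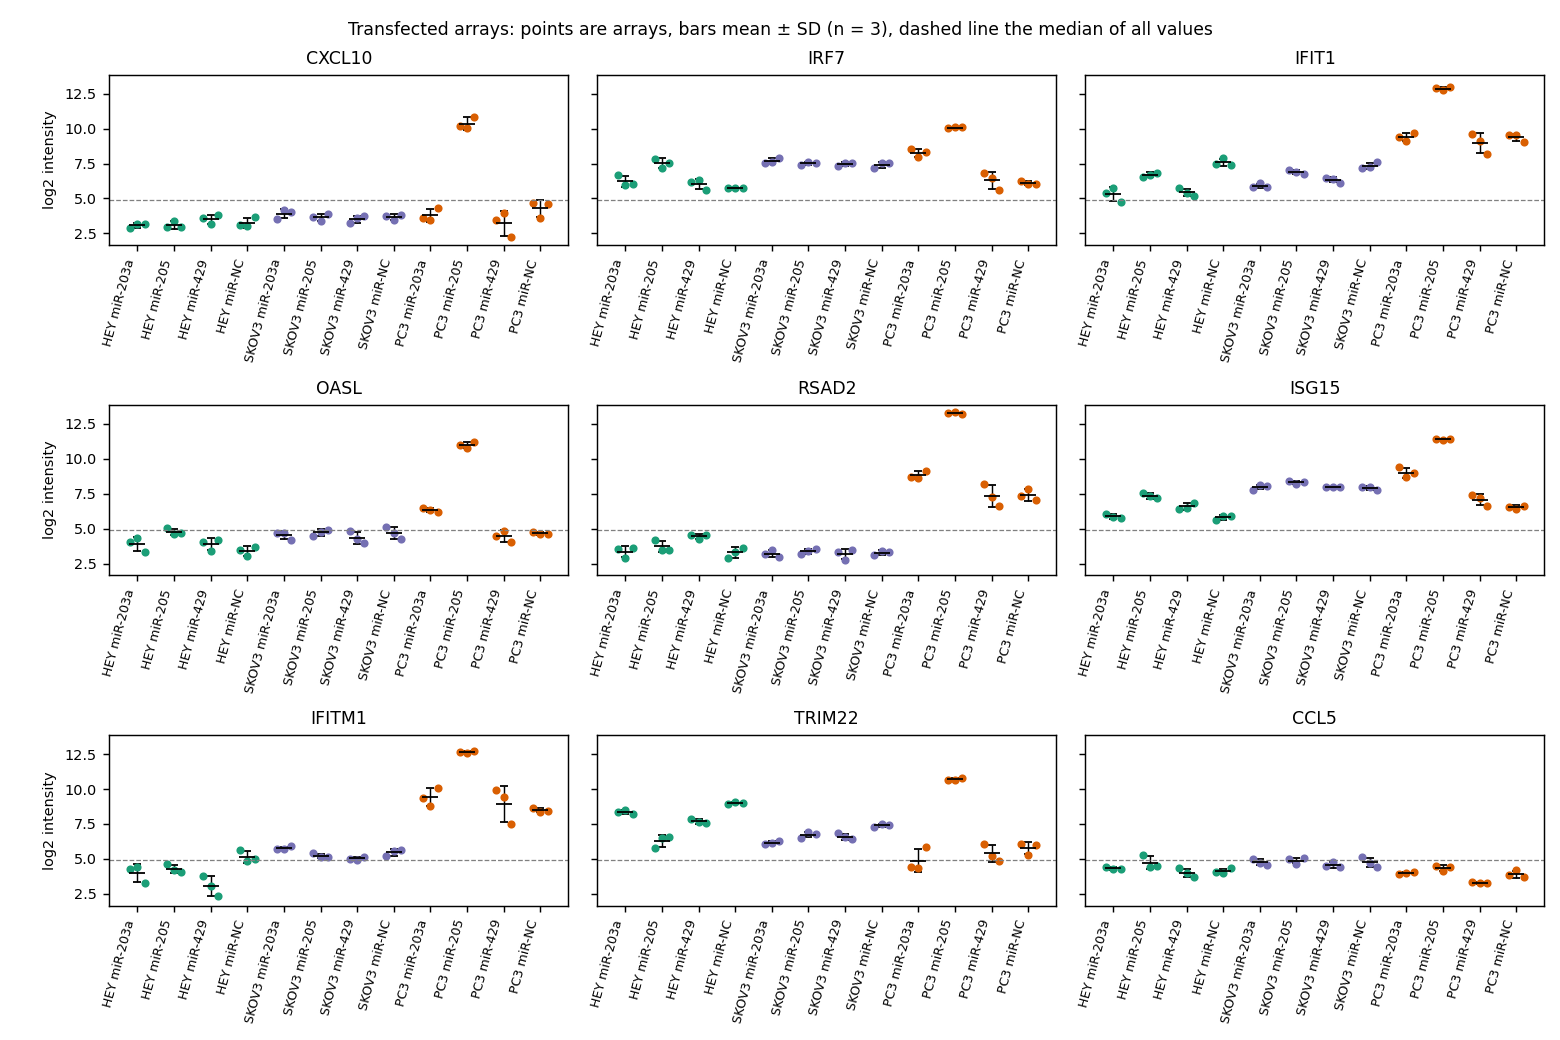
Log2 level of 9 genes on the transfected arrays by line and precursor. Points are arrays, bars are mean ± SD of 3, and the dashed line is the median of all values (4.89). PC3 miR-205 arrays lie highest in 8 of the 9 panels, with ISG15 at 11.37 to 11.42, and the highest CCL5 mean is that of SKOV3 miR-205.

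ISG15 is a ubiquitin-like modifier, and HERC5 and UBE2L6 attach it while USP18 removes it. ISG15 read 11.42, 11.37 and 11.42 with miR-205, against 6.56, 6.43 and 6.65 with miR-NC. The 3 arrays of each group were nearly equal, and the difference was 4.86 ± 0.17 or 29-fold (adjusted p = 3.55e-22). HERC5, the ligase, read 10.89, 10.76 and 10.97 with miR-205, against 7.46, 7.58 and 7.45 with miR-NC, or 10.4-fold higher (3.38 ± 0.23, adjusted p = 2.2e-14). The conjugating enzyme UBE2L6, the protease USP18 and the related ligase HERC6 lay close to HERC5, at 3.70, 3.68 and 3.56.

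Among membrane proteins, IFITM1 restricts virus entry, PLSCR1 is a phospholipid scramblase and BST2, or tetherin, holds budding virions at the cell surface. IFITM1 read 12.65, 12.61 and 12.74 with miR-205, against 8.65, 8.37 and 8.43 with miR-NC, with a rise of 4.18 ± 0.41 or 18.1-fold (adjusted p = 1.42e-10). PLSCR1 read 11.82, 11.89 and 12.07 with miR-205, against 9.59, 9.45 and 9.36 with miR-NC, with a rise of 2.46 ± 0.15 or 5.5-fold (adjusted p = 4.54e-16). A second bright probe set of the gene averaged 11.35 with miR-205 and 9.89 with miR-NC. The other, the one whose name does not warn of cross-hybridisation, was dim in both groups and differed by -0.05 (adjusted p = 0.876). BST2 differed by 2.84 from a control below 4.89.

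Of the 6 genes named for interferon inducibility (IFI), which include the DNA sensor IFI16 and the mitochondrial protein IFI27, all rose. IFI27 read 10.09, 9.93 and 10.53 with miR-205, against 5.80, 5.81 and 5.71 with miR-NC, a difference of 4.41 ± 0.21 or 21.3-fold (adjusted p = 3.53e-18). IFI44L moved least, with 11.09, 11.00 and 10.73 in miR-205, against 9.05, 8.99 and 8.82 in miR-NC, but its groups did not overlap either (1.99 ± 0.25 or 3.97-fold, adjusted p = 2.73e-08). Between them lay IFI35 at 4.13 from a control below 4.89, IFI6 at 3.97, IFI44 at 3.36 and IFI16 at 2.65.

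The ADP-ribosyltransferase family members PARP9, PARP12 and PARP14 changed by 1.81 to 2.55. PARP12 read 11.76, 11.81 and 12.08 with miR-205, against 9.31, 9.39 and 9.30 with miR-NC (5.86-fold, adjusted p = 2.53e-15). PARP14 read 11.54, 11.50 and 11.44 with miR-205, against 9.51, 9.89 and 9.64 with miR-NC (3.51-fold, adjusted p = 1.67e-13). SAMD9L, a restriction factor that halts translation, read 11.20, 11.40 and 11.39 with miR-205, against 8.66, 8.56 and 8.37 with miR-NC (6.96-fold, adjusted p = 4.12e-12). DDX60, a helicase-family protein, had a bright control and changed least of this group, with 11.28, 11.16 and 11.05 in miR-205, against 9.86, 9.73 and 9.38 in miR-NC (1.50 ± 0.28 or 2.83-fold, adjusted p = 3.25e-05).

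TRIM22 and TRIM21 are antiviral ubiquitin ligases, and TRIM21 also binds antibodies inside cells. TRIM22 read 10.68, 10.62 and 10.77 with miR-205, against 6.04, 5.25 and 5.99 with miR-NC, a rise of 4.93 ± 0.37 or 30.5-fold (adjusted p = 1.8e-13). TRIM21 rose less, with 10.44, 10.42 and 10.66 in miR-205, against 8.47, 8.50 and 8.24 in miR-NC (2.10 ± 0.15 or 4.29-fold, adjusted p = 7.69e-14). Of the remaining 6 genes, GBP1, a guanylate-binding GTPase that responds most to interferon-gamma, changed most among those measured in both groups. It read 10.09, 10.00 and 10.17 with miR-205, against 6.03, 5.87 and 4.95 with miR-NC, or 22.2-fold higher (4.47 ± 0.25, adjusted p = 1.15e-16). SP110, a nuclear body protein, changed least, with 11.61, 11.70 and 11.63 in miR-205, against 9.31, 9.10 and 9.37 in miR-NC (2.39 ± 0.20 or 5.24-fold, adjusted p = 4.19e-12). LGALS3BP, a secreted glycoprotein that binds galectins, differed by 20-fold, the exonuclease ISG20 by 8.28-fold, and EPSTI1 and the apoptosis factor XAF1 by 3.43 and 2.60 from controls below 4.89.

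Genes with several probe sets allowed a look at measurements that the choice of the brightest one had set aside. The 46 genes had 81 probe sets, and 24 genes had more than 1. Of the 35 probe sets set aside, 32 read higher in PC3 miR-205 than in PC3 miR-NC, 31 of them by at least 1 log2 unit. They are further readings of the same genes on the same arrays, and the share over all probe sets was not counted. Over all 81 the difference ran from -0.23 to 7.30. The probe sets that did not read higher were dim ones of GBP1 (-0.23), PLSCR1 (-0.05) and XAF1 (-0.02), genes whose brightest probe set did.

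The second comparison set miR-205 directly against miR-203a, the precursor of another miRNA in place of the negative control precursor miR-NC. It showed the same list higher with miR-205: 45 of 46 genes were higher and none lower, where 9.79% of all genes were higher, and 45 differed by at least 2-fold, where 2.49% of all genes did. All 3 miR-205 arrays lay above all 3 miR-203a arrays for all 46 genes, as for 18.0% of all genes. The median difference was 2.79 log2 units, against -0.02 over all genes. This comparison and the one with miR-NC share the miR-205 arrays.

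CXCL10 was near background with miR-203a, with 10.21, 10.02 and 10.85 with miR-205, against 3.60, 3.46 and 4.31 with miR-203a (6.57 ± 0.30, adjusted p = 1.1e-18). TRIM22 read 10.68, 10.62 and 10.77 with miR-205, against 4.41, 4.38 and 5.84 with miR-203a, and differed by 5.81 ± 0.37 (adjusted p = 6.27e-15). GBP1 read 10.09, 10.00 and 10.17 with miR-205, against 5.17, 4.27 and 5.33 with miR-203a, or 35.8-fold higher (5.16 ± 0.25, adjusted p = 4.03e-18). CXCL11 differed by 4.75 ± 0.25 (adjusted p = 7.62e-17). The miR-203a means of CXCL10, TRIM22 and CXCL11 lay below 4.89, so their differences are bounds and have no order. At the other end, IRF9 and IRF1 differed least among the genes that passed: IRF9 by 1.13 ± 0.23 or 2.19-fold (adjusted p = 0.000354) and IRF1 by 2.48-fold. CCL5 did not pass, at 0.33 ± 0.22 (adjusted p = 0.341).

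For 13 genes the difference from miR-203a was larger than that from miR-NC, that is, their miR-203a mean lay below their miR-NC mean. DDX60 was one of these, at 11.28, 11.16 and 11.05 with miR-205, against 8.71, 8.26 and 9.38 with miR-203a, and its miR-205 level was 5.17-fold higher than with miR-203a and 2.83-fold higher than with miR-NC. SAMD9L was another, 14-fold above miR-203a and 6.96-fold above miR-NC. ISG15 went the other way, 5.24-fold above miR-203a and 29-fold above miR-NC, as did LGALS3BP with 3.61-fold and 20-fold. The means with miR-203a lay below 4.89 for 5 genes, CXCL10, CXCL11, CCL5, TRIM22 and XAF1.

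**Figure D4:**
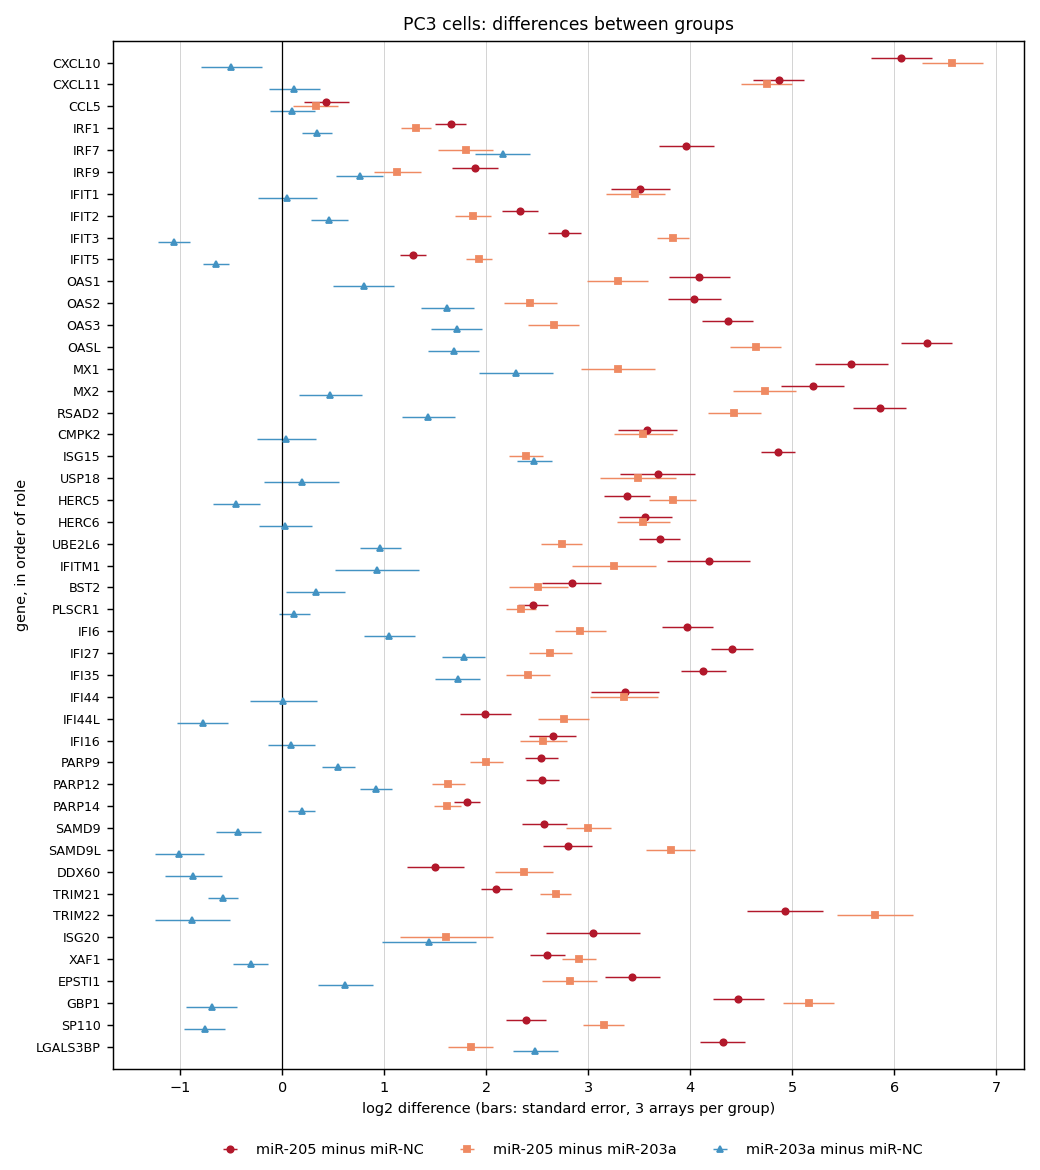
Log2 differences of the 46 genes in PC3 with SE bars, for miR-205 minus miR-NC, miR-205 minus miR-203a and miR-203a minus miR-NC. The differences that involve miR-205 have medians of 3.47 and 2.79, and those of miR-203a minus miR-NC lie on both sides of 0, from -1.06 to 2.48.

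Against miR-429 in PC3, all 46 genes were higher with miR-205, where 43.2% of all genes were, with a median of 3.16. The all-gene median was 0.29 in that comparison, which follows the low array medians of PC3 miR-429. RSAD2 differed by 5.91, and CXCL10, OASL and USP18 by 7.14, 6.53 ± 0.25 (adjusted p = 2.87e-21) and 5.36 from miR-429 means below 4.89. CCL5 was called with both means below 4.89. DDX60 had the smallest difference, 0.79 ± 0.28 (adjusted p = 0.0147). Leaving out 1 array at a time left 45 or 46 genes higher.

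With miR-203a in PC3 the list split. Against miR-NC 18 genes were higher and 9 lower, with a median of 0.26, where 24.8% of all genes were higher and 21.9% lower, so the share that rose was above and the share that fell near the background. LGALS3BP read 8.72, 8.35 and 8.68 with miR-203a, against 6.34, 6.40 and 5.59 with miR-NC (2.48 ± 0.22, adjusted p = 1.64e-11). ISG15 read 9.39, 8.68 and 8.96 with miR-203a, against 6.56, 6.43 and 6.65 with miR-NC (2.47 ± 0.17, adjusted p = 1.32e-14). MX1 read 9.40, 8.55 and 9.88 with miR-203a, against 7.15, 7.09 and 6.73 with miR-NC (2.29 ± 0.36, adjusted p = 1.43e-06). IRF7 read 8.54, 7.97 and 8.34 with miR-203a, against 6.26, 6.04 and 6.06 with miR-NC (2.16 ± 0.27, adjusted p = 1.87e-08). In these 4 genes the groups did not overlap, and the miR-203a arrays lay between those of miR-NC and miR-205. On the probe sets used, all 4 genes of the oligoadenylate synthetase family, OASL included, were also higher, by 0.80 to 1.71. Other probe sets of OAS2 (7.47 with miR-203a and 7.96 with miR-NC) and OAS3 (5.18 and 5.52) read lower. A dim one of OAS2 (4.07 and 3.77) and those of OAS1 (7.37 and 5.45) and OASL (4.89 and 3.81) read higher.

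On the probe sets used, the 9 lower genes were IFIT3, SAMD9L, TRIM22, DDX60, IFI44L, SP110, GBP1, IFIT5 and TRIM21, from -1.06 to -0.58. The probe sets set aside did not all follow. That of IFIT3 averaged 5.32 with miR-203a and 4.20 with miR-NC, and another of SP110 5.97 and 4.60. That of IFIT5 was nearly level, at 10.38 and 10.43. The remaining ones of SP110 and the dim ones of GBP1 went both ways, and those of SAMD9L read lower. IFIT3, which partners IFIT1, read 8.67, 8.63 and 9.0 with miR-203a, against 9.97, 9.83 and 9.67 with miR-NC, with no overlap (-1.06 ± 0.16, adjusted p = 1.21e-06). SAMD9L differed by -1.01 ± 0.24 (adjusted p = 0.000559), and the IFIT family itself was split, with IFIT2 higher by 0.46 and IFIT1 not called. With each array left out in turn 23 to 27 genes were called, 5 to 9 of them lower, with 5 lower when miR-203a array 2 was left out. Within the miR-203a group the second array read lowest for 32 of the 46 genes (32.3% of all genes) and the third highest for 35 (32.1% of all genes), and the median SD of the 46 genes was 0.29, against 0.16 for all genes. The GAPDH 5′ minus 3′ difference was also closer to 0 with miR-203a than with miR-NC, as given above, and its part was not tested.

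With miR-429 in PC3, 11 genes were higher and 6 lower than with miR-NC (median 0.10), where 13.3% of all genes were higher and 34.8% lower and the all-gene median was -0.22. OAS3 read 10.21, 10.27 and 8.93 with miR-429, against 8.13, 8.23 and 8.05 with miR-NC (1.67 ± 0.25, adjusted p = 2.09e-06), but the mean of its probe sets differed by 0.44 and did not pass (adjusted p = 0.0834). OAS1 differed by 1.50 ± 0.30 (adjusted p = 9.4e-05), and the 3 PARP genes were all higher, by 0.48 to 0.78. The 6 lower genes were USP18, CXCL10, BST2, IFI44L, CCL5 and XAF1, of which CXCL10, BST2, CCL5 and XAF1 had both group means below 4.89. USP18 read 5.81, 5.48 and 3.23 with miR-429, against 6.76, 6.36 and 6.45 with miR-NC (-1.68 ± 0.37, adjusted p = 0.000344). The arrays of the miR-429 group were far apart: the third read lowest for 43 of the 46 genes, as it did for 35.2% of all genes, and the median SD was 0.47, against 0.17 for all genes. Without the first miR-429 array 6 genes were higher and 7 lower. Without the third 17 genes were higher and 3 lower, and CXCL10 no longer passed (-1.08 with that array, -0.57 without it, adjusted p = 0.0978). With array medians subtracted, which moved the all-gene median to 0.19, 21 genes were higher and 1 lower, and after quantile normalization 14 were higher and 2 lower.

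In HEY each miRNA left more of the genes lower than higher. With miR-203a 0 genes were higher and 8 lower (median -0.20, all-gene median 0.01), where 4.29% of all genes were higher and 5.73% lower. IFIT1 read 5.41, 5.73 and 4.76 with miR-203a, against 7.49, 7.89 and 7.43 with miR-NC (-2.30 ± 0.29, adjusted p = 3.39e-07). IFIT3 read 7.83, 8.10 and 7.90 with miR-203a, against 9.39, 9.39 and 9.26 with miR-NC (-1.40 ± 0.16, adjusted p = 1.12e-07). All miR-203a arrays lay below all control arrays in both. IFI44L was called lower as well, but both its group means lay below 4.89, with 3.52, 3.67 and 3.40 in miR-203a, against 5.18, 4.96 and 4.54 in miR-NC (-1.36 ± 0.25, adjusted p = 0.000177). OAS1 differed by -1.08 ± 0.30 (adjusted p = 0.0135), a call lost without miR-NC array 1 or 3 or miR-203a array 1 or 3 (adjusted p 0.0519 to 0.0775). The other lower genes were SAMD9L, IFIT2, DDX60 and GBP1, and the count was 5 without miR-NC array 1, 4 without miR-203a array 1 and 5 without miR-203a array 3.

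With miR-205, the precursor after which the list was high in PC3, HEY had 8 genes higher and 19 lower, with a median of -0.39 against 0.06 over all genes, where 28.7% of all genes were higher and 26.3% lower. The genes that fell were led by DDX60, which read 5.91, 6.35 and 6.41 with miR-205, against 9.14, 9.24 and 9.08 with miR-NC (-2.93 ± 0.28, adjusted p = 1.71e-11). TRIM22 read 5.75, 6.48 and 6.58 with miR-205, against 8.95, 9.04 and 9.02 with miR-NC (-2.73 ± 0.37, adjusted p = 5.04e-08). SAMD9L read 4.95, 4.71 and 5.27 with miR-205, against 7.64, 7.69 and 7.74 with miR-NC (-2.71 ± 0.24, adjusted p = 2.06e-12). None of these groups overlapped. All 4 IFIT genes, both TRIM genes and all 3 genes of the SAMD9, SAMD9L and DDX60 group were lower. Among the 8 higher genes LGALS3BP read 10.68, 10.48 and 10.28 with miR-205, against 7.41, 7.26 and 7.72 with miR-NC (3.02 ± 0.22, adjusted p = 3.25e-14). IFI35, a cytosolic partner of NMI, differed by 2.35 ± 0.22 (adjusted p = 1.93e-11), and IRF7, ISG15, OASL, IRF1, CCL5 and UBE2L6 by 0.50 to 1.78. Both group means lay below 4.89 for OASL and CCL5 of the higher genes and for CMPK2, EPSTI1 and IFI44L of the lower ones. The GAPDH 5′ minus 3′ difference was -1.47 ± 0.26 in HEY miR-205 and -3.91 ± 0.26 in HEY miR-NC (SD, n = 3 each), and its part was not tested.

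With miR-429, HEY had 7 genes higher and 23 lower (median -0.55, all-gene median -0.07), where 20.2% of all genes were higher and 29.5% lower. IFIT3 read 6.05, 6.84 and 6.18 with miR-429, against 9.39, 9.39 and 9.26 with miR-NC (-2.99 ± 0.16, adjusted p = 3.86e-17). IFIT2 read 6.22, 6.77 and 6.65 with miR-429, against 9.13, 9.22 and 9.08 with miR-NC (-2.59 ± 0.18, adjusted p = 2.78e-14). The control arrays of both genes lay more than 2 log2 units above every miR-429 array. DDX60 and SAMD9L fell here too, with differences of -2.53 ± 0.28 and -2.36 ± 0.24 (adjusted p = 1.23e-09 and 1.41e-10). The 7 higher genes were IFI35, LGALS3BP, RSAD2, CXCL11, ISG15, PLSCR1 and XAF1, with 1.37 for IFI35 and 1.35 for LGALS3BP, which read 8.92, 8.31 and 9.20 with miR-429. Both group means lay below 4.89 for RSAD2, CXCL11 and XAF1 of these and for IFI44L of the lower genes. The 3 comparisons in HEY share the miR-NC arrays, so genes lower in more than 1 of them are not independent observations. HEY miR-429 had the widest GAPDH 5′ minus 3′ difference of the series, -7.34 ± 0.18 (SD, n = 3), and its part was not tested.

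**Figure D5:**
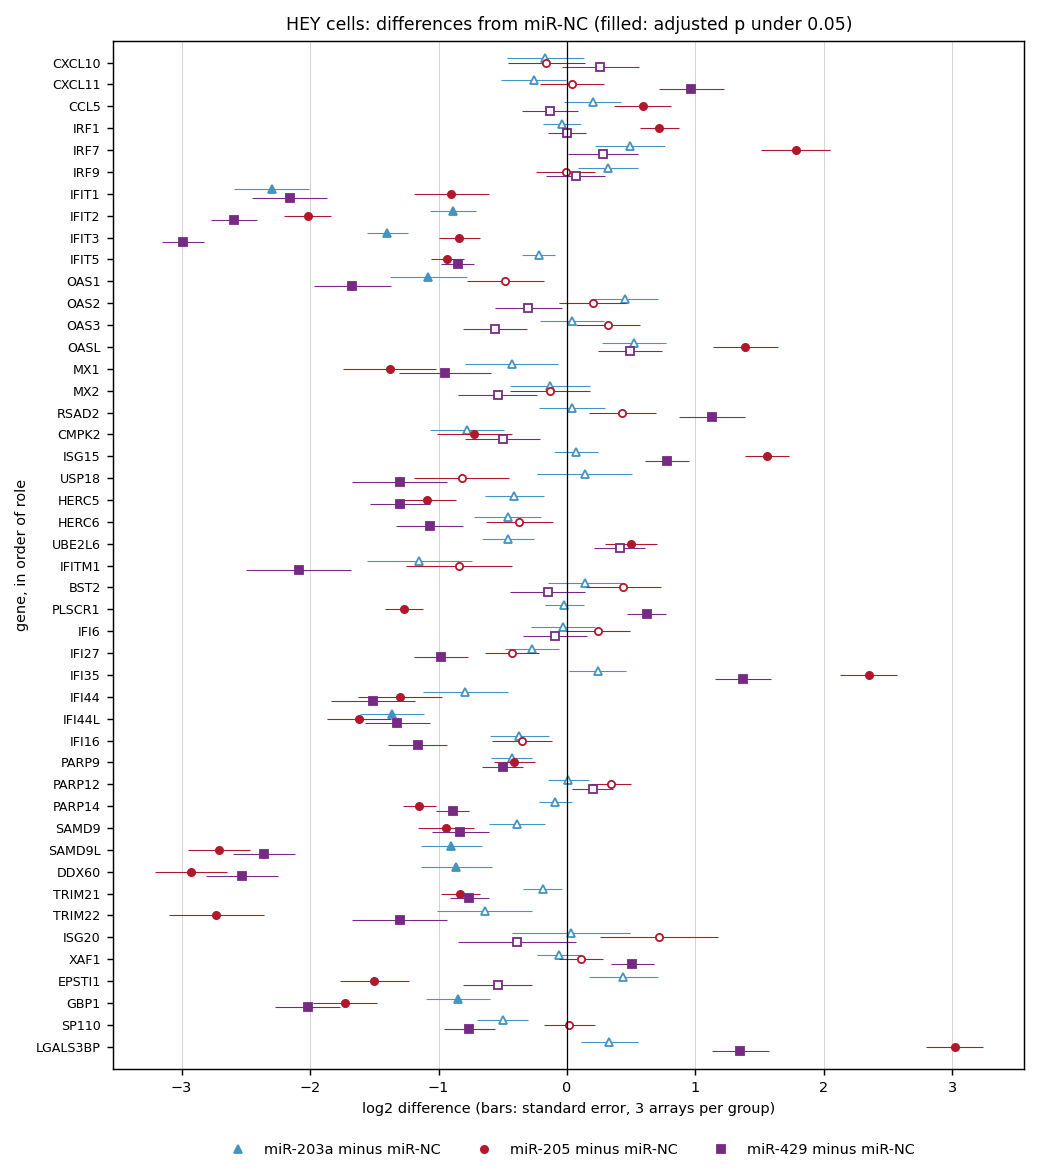
Log2 differences of the 46 genes in HEY for miR-203a, miR-205 and miR-429, each minus miR-NC, with filled symbols for genes past the adjusted p threshold of 0.05. Most filled symbols lie below 0, with LGALS3BP at 3.02 for miR-205 as the highest and IFIT3 at -2.99 for miR-429 as the lowest.

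SKOV3 changed little in the fit of all arrays. There, 1 gene was higher and 4 lower with miR-203a, where 5.15% of all genes were higher and 3.60% lower. A fit of SKOV3 alone called more genes with each miRNA, as counted in the last section, and its all-gene shares were not computed. IFIT1 read 5.85, 6.09 and 5.79 with miR-203a, against 7.15, 7.26 and 7.60 with miR-NC, without overlap (-1.43 ± 0.29, adjusted p = 0.000455). SP110 differed by -0.81 ± 0.20 and IFIT3 by -0.73 ± 0.16 (adjusted p = 0.00584 and 0.00196), though the mean of the IFIT3 probe sets did not pass (-0.43, adjusted p = 0.104). TRIM22 passed only with all arrays (-1.22 ± 0.37, adjusted p = 0.0293, and 0.0558 to 0.0981 with any 1 of the 6 left out). The higher gene was PARP14 (0.49 ± 0.13, adjusted p = 0.0144), a call lost without miR-NC array 2 (0.14), miR-203a array 2 (0.0654) or miR-203a array 3 (0.0775), and without each of these arrays 3 genes were called.

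With miR-205 in SKOV3 5 genes were higher and 2 lower, and with miR-429 2 were higher and 3 lower. Of all genes 12.7% were higher and 6.83% lower with miR-205, and 11.1% and 5.55% with miR-429. In the fit of all arrays these shares of the list thus lay near or below those of all genes. GBP1 stood out in both. It read 5.86, 6.07 and 5.89 with miR-205 and 5.81, 5.53 and 5.72 with miR-429, against 3.54, 3.82 and 4.13 with miR-NC, which lie below 4.89. The differences were 2.11 ± 0.25 for miR-205 (adjusted p = 3.3e-08) and 1.86 ± 0.25 for miR-429 (adjusted p = 5.43e-07), from the same miR-NC arrays. With miR-205 the lower genes were SAMD9L (-1.0 ± 0.24, adjusted p = 0.00179) and SP110 (-0.99 ± 0.20, adjusted p = 0.000296). The other higher genes were OAS3, XAF1, IFIT3 and IFIT5, at 0.74, 0.61, 0.46 and 0.37, and the OAS3 call was lost in 5 of 6 fits that left out an array. The miR-205 count was 3 without miR-NC array 1 or miR-205 array 2 and 4 without miR-NC array 2 or miR-205 array 3.

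With miR-429 in SKOV3 the lower genes were IFIT1 (-1.0 ± 0.29, adjusted p = 0.0115), SP110 (-0.78 ± 0.20, adjusted p = 0.00513) and IFI27 (-0.67 ± 0.21, adjusted p = 0.0255). IFIT1 read 6.49, 6.40 and 6.14 with miR-429, against 7.15, 7.26 and 7.60 with miR-NC. PLSCR1 was higher by 0.43 ± 0.15 (adjusted p = 0.0328), a call lost in all 6 fits that left out an array. IFI27 lost its call in 4 of the 6, IFIT1 in 2 and SP110 in 1. The count was 2 without miR-429 array 3 and 3 without miR-NC array 2 or 3 or miR-429 array 1 or 2. The GAPDH 5′ minus 3′ difference stayed between -0.07 and 0.00 in all transfected SKOV3 groups.

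Some genes were lower with miR-203a in more than 1 line, the lines having separate control arrays. HEY and PC3 shared DDX60, GBP1, IFI44L, IFIT3 and SAMD9L, 5 of the 8 lower genes of HEY and of the 9 of PC3, while over all genes 62.6% of those lower in HEY and 16.3% of those lower in PC3 were shared. SKOV3 shared IFIT1 and IFIT3 with HEY, 2 of its 4 lower genes and of the 8 of HEY, against 38.2% and 24% over all genes. It shared IFIT3, SP110 and TRIM22 with PC3, 3 of its 4 and of the 9 of PC3, against 54.6% and 8.96% over all genes. IFIT3 was the 1 listed gene lower in all 3 lines on its brightest probe set, while its other probe set read higher in PC3. The overlaps were not tested.

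The lines also differed in the level of these genes with the control precursor alone, though line and handling cannot be told apart here. In SKOV3 miR-NC 19 genes were higher and 19 lower than in HEY miR-NC, where 33.2% of all genes were higher and 36.8% lower. HERC5 differed by 5.54 ± 0.23 and BST2 by 4.62 from a HEY mean below 4.89, while IFIT2 (-3.84), GBP1 (-3.64, with a SKOV3 mean below 4.89), PARP14 (-2.67) and the DNA sensor IFI16 (-2.63) were lower. In PC3 miR-NC 23 genes were higher and 10 lower than in HEY miR-NC, where 22.2% of all genes were higher and 25.0% lower. The neighbours CMPK2 and RSAD2 differed by 4.82 ± 0.29 and 4.11 and IFI44L and OAS2 by 4.06 and 4.01, all bounds from HEY means below 4.89, and TRIM22 was lower at -3.24. Against SKOV3 miR-NC, PC3 miR-NC had 25 genes higher and 15 lower, where 38.8% of all genes were higher and 34.5% lower, with IFIT2 at 5.51 ± 0.18 and, from SKOV3 means below 4.89, IFI44L at 5.75 ± 0.25 and RSAD2 at 4.12. LGALS3BP, BST2, IFI35 and HERC5 were lower there, from -4.81 to -3.06, with PC3 means of BST2 and IFI35 below 4.89.

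Whether the response to a miRNA differed between lines was tested as the difference of the differences. For miR-205 45 of 46 genes responded more in PC3 than in HEY (median 3.79) and 45 more in PC3 than in SKOV3 (median 3.61), where 20.7% and 17.4% of all genes did. TRIM22 differed between PC3 and HEY by 7.66 ± 0.52 (adjusted p = 4.03e-14), having risen in PC3 and fallen in HEY. MX1 differed by 6.96 ± 0.50 and CXCL10 and GBP1 by 6.22 and 6.20. Between PC3 and SKOV3, OASL differed by 6.28 ± 0.35 (adjusted p = 7.61e-16), and MX1, CXCL10 and RSAD2 by 6.15, 6.09 and 5.77. The HEY miR-205 mean of MX1, the HEY, SKOV3 and PC3 miR-NC means of CXCL10 and OASL, and the SKOV3 means of RSAD2 lay below 4.89, so these sizes have no order. CCL5 was the exception in both. Between SKOV3 and HEY 14 genes responded more and 7 less in SKOV3, where 24.4% of all genes responded more and 24.1% less. LGALS3BP was at -2.92 and GBP1 at 3.84, the latter from a SKOV3 miR-NC mean below 4.89.

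For miR-203a 18 genes responded more in PC3 than in HEY and 0 less, where 16.9% of all genes responded more and 10.5% less. ISG15 (2.39), IFIT1 (2.35) and LGALS3BP (2.15) led. MX1 was at 2.72, a bound, since its HEY miR-203a mean lay below 4.89. Between PC3 and SKOV3 14 responded more and 5 less, where 18.9% of all genes responded more and 15.5% less. The 5 became 1 without SKOV3 miR-NC array 1 or PC3 miR-203a array 2, 2 without PC3 miR-NC array 1, and 3 without SKOV3 miR-203a array 2, PC3 miR-NC array 2 or PC3 miR-203a array 1. Between SKOV3 and HEY 2 genes responded more and 0 less, where 2.14% of all genes responded more and 1.15% less. They were IFI44L (1.60 ± 0.35, adjusted p = 0.00471) and GBP1 (1.20 ± 0.35, adjusted p = 0.0497). The GBP1 call was lost in 10 fits that left out an array and with the replicate number as a block (0.0591). It was also lost after quantile normalization (0.0537) and with array medians subtracted (0.0608). All 4 means behind the IFI44L value, and both SKOV3 means behind that of GBP1, lay below 4.89. For miR-429 22 genes responded more in PC3 than in HEY and 6 less, where 23.7% and 31.8% of all genes did. DDX60 was at 3.25 and OAS1 at 3.17, the latter with a HEY miR-429 mean just below 4.89. Without PC3 miR-429 array 3, 28 genes responded more and 3 less. Between PC3 and SKOV3 6 responded more and 3 less (5.91% and 20.8% of all genes), and 5 passed without SKOV3 miR-NC array 2, SKOV3 miR-429 array 1 or PC3 miR-NC array 1. Without PC3 miR-429 array 1, 2 or 3 the counts were 2 more and 5 less, 3 more and 4 less, and 11 more and 1 less. Between SKOV3 and HEY 18 responded more and 5 less (25.5% and 16.2% of all genes). IFIT3 was at 3.33 and GBP1 at 3.87, the latter from a SKOV3 miR-NC mean below 4.89.

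Genes that surround the interferon response were read from lists outside the 46. The share of all genes higher with miR-205 was 22.6% against miR-NC and 9.79% against miR-203a, and the share lower 17.2% and 8.79%. Among 9 interferon genes 3 were higher and 1 lower with miR-205 than with miR-NC in PC3. IFNB1, which encodes interferon-beta, read 7.28, 7.38 and 8.12 on the PC3 miR-205 arrays and 3.24, 3.52 and 2.76 on those of miR-203a, against 3.33, 2.59 and 2.69 with miR-NC (4.73 ± 0.25 from miR-NC, adjusted p = 3.11e-17). IFNL2, a lambda interferon, read 8.39, 7.91 and 8.64 with miR-205, against 3.10, 2.30 and 1.76 with miR-NC (5.93 ± 0.28, adjusted p = 1.9e-18). Its sequence is nearly that of IFNL3, so the probe set may read both. IFNL1 was higher by 1.16 and IFNE, an interferon of reproductive epithelium, was at -1.71 ± 0.22. The PC3 miR-NC means of IFNB1, IFNL2 and IFNL1 lay below 4.89, so their differences are bounds. In the transfected HEY and SKOV3 groups the means of IFNB1 lay between 2.45 and 3.36. In the arrays labelled untransfected they were 4.10 for HEY and 4.31 for SKOV3, and all of these lie below 4.89.

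Of 14 sensor genes and adaptors 10 were higher and 0 lower with miR-205 than with miR-NC in PC3. TLR3, the endosomal receptor for double-stranded RNA, read 10.00, 10.29 and 10.30 with miR-205 and 4.89, 5.13 and 4.99 with miR-203a, against 6.93, 6.80 and 6.84 with miR-NC (3.34 ± 0.21 from miR-NC). IFIH1, which encodes MDA5, differed by 3.23 ± 0.17 and RIGI by 2.42 ± 0.16, and both genes are also known targets of interferon. All 16 genes of antigen processing and presentation were higher (median 2.48), with HLA-B at 3.20 and the immunoproteasome subunits PSMB8 and PSMB9 both at 3.15. Of 12 genes that answer mostly to interferon-gamma 8 were higher (median 1.54), among them the tryptophan-degrading enzyme IDO1 at 3.60 and GBP4 at 4.60. The GBP4 difference is a bound, from a miR-NC mean of 3.58. Of 16 NF-kB targets 13 were higher (median 0.90), led by TNFAIP2 at 2.76. Of 16 receptors and signalling genes 6 were higher and 3 lower (median 0.30), led by the receptor subunit IL10RB and the kinase TYK2 at 1.49 and 1.45.

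Against miR-203a in PC3 these lists gave 3 of 9 interferon genes, 6 of 14 sensors, 14 of 16 antigen presentation genes, 8 of 12 interferon-gamma genes, 4 of 16 NF-kB targets and 4 of 16 receptor and signalling genes higher, with 1 sensor and no gene of the other 5 lists lower. TLR3 differed by 5.20 there. Housekeeping genes moved as well: 4 of 9 were higher with miR-205 than with miR-NC in PC3 (PPIB at 1.69), and against miR-203a 1 was higher and 2 were lower. Markers of blood cells were read as a check of the cultures. Of 12, 0 were higher and 1, LYZ, was lower against miR-NC, their summed level was 7.59 to 7.73 log2 units on the PC3 miR-205 arrays and 7.67 to 7.92 on the miR-NC arrays, and PTPRC, the common leukocyte gene, had group means of 2.70 to 3.29 over all 15 groups. Of 5 line markers 4 were higher with miR-205 than with miR-NC, with the keratin KRT8 at 8.79 with miR-205, against 5.80 with miR-NC, and their part was not tested.

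As a description, the genes outside the list whose 15 group means followed the mean of the 46 genes most closely were AIM2, IL22RA1, GBP4, HSH2D, CCR1, ACOD1, GBP2 and SEC14L5, with Pearson correlations of 0.976 to 0.917. The 15 points share 3 cell lines. AIM2, an inflammasome DNA sensor, averaged 8.78 in PC3 miR-205 and 4.47 in PC3 miR-NC, and IL22RA1, an interleukin-22 receptor chain, averaged 7.55 in PC3 miR-205 and 5.32 in PC3 miR-NC. GBP4 averaged 8.19 in PC3 miR-205 and 3.58 in PC3 miR-NC. Within the list the same correlation was lowest for CCL5 (-0.24), LGALS3BP (0.00), IFI35 (0.03) and BST2 (0.09), genes whose mean among transfected groups was highest in SKOV3.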

How the data were processed

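Total RNA of the transfected and untransfected cultures was amplified from its 3′ end, labelled with biotin and hybridised to arrays of 54675 probe sets, per the labels' protocols. The authors deposited log2 values made with RMA, per the submitters' processing notes, with its version not given in the sources used here. RMA corrects background, normalizes arrays together and summarises the probes of a set, and it compresses differences of dim genes. Which arrays were normalized together is not given in the sources used here.

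Of the probe sets 41097 had 1 gene symbol in the platform annotation, 1801 had several and 11777 had none, and only those with 1 were used. The brightest probe set per gene, by mean over 45 arrays, gave 19775 genes with no filter on level, so that every listed gene was tested. The 15 group means were estimated in 1 model with the R 4.3.3 package limma 3.58.1 (lmFit, eBayes, 30 residual and 5.96 prior degrees of freedom). Its two-sided tests were adjusted by Benjamini-Hochberg over all genes in each comparison, with a threshold of 0.05. Groups followed the labels. Untransfected arrays entered the fit for the spread and no comparison. Folds are given where both means are at or above 4.89, the median of all values. The fit was tested on simulated data. Sequences come from RefSeq (GRCh38.p14).

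The 46 genes, the other lists and the tests were chosen with earlier results of these data known. In each role class, array values are given for the genes with the largest and smallest change in PC3 miR-205 against miR-NC. For other comparisons the text names up to 4 called genes with the largest difference and those called against the majority, of other lists up to 3 called genes, and the 8 genes most like the list's mean. Other genes named were chosen after their values were seen. Alternatives were a fit per line, a fit without untransfected arrays, the replicate number as a block, quantile normalization, array medians subtracted, 2 filters on dim genes, averaging all probe sets of a gene, dropping probe sets named _x_at or _s_at, eBayes with a trend and robust prior, requiring a 2-fold difference, and each array left out in turn. Python 3.11.15, pandas 2.3.3, numpy 2.4.6 and matplotlib 3.10.9 were used, with statmod 1.5.0.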

Additional observations from a re-analysis of the deposited data

Results flagged for a closer look

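These counts are given because the response of at least 1 gene differed between lines in a test of the difference itself, an interaction contrast in the limma fit at an adjusted p threshold of 0.05 over all genes. For miR-205, 45 of the 46 genes differed in PC3 minus HEY (45 higher), 45 in PC3 minus SKOV3 (45 higher) and 21 in SKOV3 minus HEY (14 higher and 7 lower). For miR-203a, 18 differed in PC3 minus HEY (18 higher), 19 in PC3 minus SKOV3 (14 higher and 5 lower) and 2 in SKOV3 minus HEY (2 higher). For miR-429, 28 differed in PC3 minus HEY (22 higher and 6 lower), 9 in PC3 minus SKOV3 (6 higher and 3 lower) and 23 in SKOV3 minus HEY (18 higher and 5 lower). Of all genes 37.6%, 33.2% and 48.4% differed for miR-205, 27.3%, 34.5% and 3.29% for miR-203a and 55.5%, 26.7% and 41.6% for miR-429, in the same order, so the counts for miR-205 in SKOV3 minus HEY and for miR-429 in PC3 minus SKOV3 lie below the share of all genes, and those for miR-203a in SKOV3 minus HEY and for miR-429 in PC3 minus HEY lie near it. The 3 tests of 1 miRNA share arrays, and line and handling of the samples cannot be told apart.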

How the results depend on the processing

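Counts of called genes stayed within 1.5 times in 381 cases over all alternatives and moved further in 52, and PC3 miR-205 kept 45 of 46 genes against miR-NC and against miR-203a with any array left out. Separate fits per line gave 4 genes in HEY miR-203a and 8 (miR-203a), 18 (miR-205) and 11 (miR-429) in SKOV3. All-gene shares were not computed for the alternatives other than the 2-fold minimum. Without untransfected arrays SKOV3 miR-429 had 9 and the miR-203a response in SKOV3 minus HEY 5. That response gave 1 after quantile normalization and 1 with array medians subtracted, which gave 16 for the miR-429 response in PC3 minus SKOV3. The mean of probe sets gave 3 in SKOV3 miR-205. Without _x_at and _s_at probe sets, which leaves 36 of the genes, SKOV3 had 3 with miR-203a, 4 with miR-205 and 3 with miR-429, the miR-205 response in SKOV3 minus HEY had 13, and PLSCR1 reversed, to -0.05 in PC3 miR-205 and -0.05 in SKOV3 miR-429, neither past the test. A 2-fold minimum left 4 (miR-203a), 17 (miR-205) and 18 (miR-429) in HEY and 2, 1 and 1 in SKOV3. In PC3 it left 14 with miR-203a and 4 with miR-429. It left 21 in PC3 minus HEY miR-NC and 5 for the miR-429 response in PC3 minus SKOV3. All-gene shares higher and lower with that minimum were 0.455% and 1.59%, 13.0% and 13.6%, and 6.49% and 11.3% in HEY. In SKOV3 they were 1.03% and 0.794%, 2.84% and 1.04%, and 2.75% and 0.617%. They were 10.9% and 5.89% in PC3 miR-203a and 1.18% and 9.91% in PC3 miR-429. For PC3 minus HEY miR-NC they were 10.2% and 8.95%, and for the miR-429 response 1.26% and 9.54%. With each array left out, counts in this order of miRNAs ran over 4 to 7, 24 to 27 and 29 to 30 in HEY, 3 to 4, 3 to 6 and 2 to 4 in SKOV3, and 23 to 27, 45 to 45 and 13 to 20 in PC3. Without 1 array miR-205 gave 45 to 45 genes against miR-203a and 45 to 46 against miR-429 in PC3. The miR-NC lines gave 36 to 38 for SKOV3 minus HEY, 29 to 32 for PC3 minus HEY and 38 to 39 for PC3 minus SKOV3. Responses without 1 array gave 16 to 18, 45 to 45 and 26 to 31 in PC3 minus HEY, 15 to 19, 45 to 45 and 5 to 12 in PC3 minus SKOV3 and 1 to 2, 19 to 22 and 19 to 24 in SKOV3 minus HEY, in the same order of miRNAs. Same-numbered arrays did not pair, with correlations of their deviations of -0.13 to 0.09 in 11 pairs of groups, and the fit with the replicate number as a block moved no count by over 1.5 times, with 45 in PC3 miR-205, 26 in PC3 miR-203a, 6 in SKOV3 miR-205 and 7 in SKOV3 miR-429. The block ended 1 named call, GBP1 in the miR-203a response in SKOV3 minus HEY (adjusted p = 0.0591). Quantile normalization shifted the higher and lower split to 3 and 4 in SKOV3 miR-205, 1 and 3 in SKOV3 miR-429, 7 and 1 for the miR-429 response in PC3 minus SKOV3 and 14 and 8 in SKOV3 minus HEY, and array medians subtracted gave 15 and 1 in PC3 minus SKOV3. Of 113 single named results 18 no longer passed under at least 1 alternative, PLSCR1 in PC3 miR-205 among them, and CCL5 in PC3 miR-205 newly passed under 2. The causes were not tested. Signal near background limits the sizes, with 8 PC3 miR-NC means below 4.89.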
